A study of Rattus norvegicus with 16 samples.

Results

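Messenger RNA levels of 6 genes that limit stress and growth factor signalling were followed over time in the CA1 and CA3 fields of cultured rat hippocampus. The genes were Zfp36, Zfp36l1 and Zfp36l2, which encode RNA-binding proteins, and Dusp1, Dusp5 and Dusp6, which encode phosphatases of MAP kinases. They are 6 of the 10411 genes named on the array, and 11 probe sets measure them. The genes were chosen by their function together with their measured changes over time in these same arrays, and probe sets were then found by gene symbol. Their differences from T0 are therefore given as a description, with standard errors and no test. Differences between the regions were not used in the choice and were tested. Those at single times, and the differences of the change since T0, share arrays with the time differences and are not independent of the choice. Where a gene had several probe sets, the one with the highest mean over all arrays stood for it and the others are reported beside it.

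The series title names a time-dependent reaction to oxidative stress in both fields. RNA came from organotypic hippocampal slice cultures, that is, brain slices kept alive in culture with their layered structure, of Rattus norvegicus. The labels give 2 regions, CA1 and CA3, and 4 times labelled T0, T30m, T3h and T12h (taken as the start and 30 min, 3 h and 12 h later), with 2 biological replicates of each combination, or 16 arrays in 8 groups. The sources used here give no agent, dose, strain or age and do not say how T0 relates to the exposure, and no group carries a labelled genotype or transgene. No label says whether replicates came from separate animals, so p-values measure the spread between these samples, which may be partly technical.

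ZFP36 (tristetraprolin) and its relatives ZFP36L1 and ZFP36L2 bind AU-rich elements in the untranslated tails of messenger RNAs and recruit deadenylases, which shortens the life of the bound message. Many of their targets encode cytokines and growth regulators. Dual-specificity phosphatases remove phosphate from the tyrosine and the threonine of the activation loop of MAP kinases. DUSP1 is nuclear and acts on p38, JNK and ERK, DUSP5 is nuclear and acts on ERK, and DUSP6 is cytoplasmic and acts on ERK. Transcription of several of these genes is itself driven by MAP kinase signalling, so that they act as negative feedback, and in neurons Dusp1 and Zfp36 are known as immediate early genes.

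Promoters are shown for Zfp36 and Dusp1, whose levels were furthest above T0, and for Dusp5, which holds 2 serum response motifs (CArG boxes) near its start site. All 6 genes matched a RefSeq promoter window of 300 bases, from 250 bases before the annotated start to 50 after it. Each line below is 100 bases of the gene's own strand, 5′ to 3′, credited to RefSeq on the build GRCr8: Zfp36 at chr1:92799109-92799208 on the minus strand, Dusp1 at chr10:17184673-17184772 on the plus strand and Dusp5 at chr1:262543654-262543753 on the plus strand. Capitals mark letters that match a searched motif.

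Zfp36: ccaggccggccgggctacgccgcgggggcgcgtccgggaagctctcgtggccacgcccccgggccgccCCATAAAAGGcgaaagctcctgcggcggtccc
Dusp1: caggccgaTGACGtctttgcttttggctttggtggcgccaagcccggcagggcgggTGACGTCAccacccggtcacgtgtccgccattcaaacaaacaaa
Dusp5: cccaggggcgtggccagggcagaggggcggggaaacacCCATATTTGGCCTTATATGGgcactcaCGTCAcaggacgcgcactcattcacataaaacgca

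Motifs were searched on both strands. The CArG box, read as CC and GG around 6 bases that are each A or T, is bound by serum response factor and was found in 2 of the 6 windows. Zfp36 held 1, starting 32 bases before the start site, and Dusp5 held 2 that lie side by side, starting 82 and 72 bases before it. Of all 33469 promoter windows, 1.64% held a CArG box. The full cyclic AMP response element TGACGTCA was found in Dusp1 alone among the 6, 124 bases before the start, and in 1.83% of all windows. Its shorter core TGACG, which overlaps the full element, was found in Dusp1, Dusp5 and Zfp36l2 and in 21.2% of all windows. The AP-1 site, TGACTCA or TGAGTCA, was found in 0 of the 6 windows and in 4.63% of all. These are matches of letters in the windows and not measured binding sites.

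The deposited values are log2 expression values made with RMA, which gives all arrays one distribution of signals, so every change is relative to the other genes on an array. Array medians lay between 5.8141 and 5.941, and the arrays of a group correlated at 0.911 to 0.969. The mean of 27 Bacillus spike control probe sets ranged from 5.96 to 6.46 at T0, from 4.15 to 6.32 at 30 min, from 5.30 to 6.08 at 3 h and from 4.32 to 5.16 at 12 h. The arrays of replicate 2 at 30 min and at 12 h were low in both regions. The 3′ minus 5′ difference of GAPDH, a sign of RNA length, ranged from 1.29 to 3.93 and was highest in replicate 2 at 3 h in both regions. As to tissue, 6 of 7 listed neuron markers were measured, and their mean per array ran from 5.29 to 8.65 at T0 and from 8.49 to 9.46 at 12 h. The mean of 9 microglia markers ran from 7.62 to 8.18 at T0, from 6.80 to 7.92 at 30 min, from 6.65 to 7.82 at 3 h and from 5.90 to 7.16 at 12 h. That of 7 markers of dividing cells ran from 7.20 to 8.02 at T0, from 5.69 to 6.73 at 30 min, from 5.52 to 5.99 at 3 h and from 4.95 to 5.51 at 12 h. In limma's test over 15866 probe sets, 3 of the 7 markers of dividing cells fell at 30 min, 4 at 3 h and all 7 at 12 h, with median differences from T0 of -1.31, -1.74 and -2.29. Of all probe sets 0.107%, 0.183% and 2.07% passed at those times. At 12 h, 2 neuron markers and 1 CA1 field marker rose, and 3 microglia markers and 1 fibroblast marker fell. With the CA1 and CA3 array of a time and number averaged to 1 value, 0 of all probe sets passed at any time, with 629, 792 and 1664 at an unadjusted p under 0.05, so these marker calls were lost too. The median difference between CA1 and CA3 was 0.62 for 4 CA1 field markers and -0.53 for 3 CA3 field markers, -0.88 for the neuron markers and -0.80 for the oligodendrocyte markers (CA1 minus CA3). None of these passed the test between regions in the fit of all arrays, beside 0% of all probe sets. In such tissue samples fewer cells of a type and less RNA per cell cannot be told apart. The part of spike signal, RNA length and cell markers in the values below was not tested, except where a value without the arrays concerned is given.

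Zfp36 (probe set 1387870_at), which encodes the founding member of its family, was higher than at T0 at every later time, most of all at 30 min and in CA1. On the CA1 arrays of replicates 1 and 2, the log2 level of Zfp36 was 5.33 and 5.33 at T0, 7.27 and 7.46 at 30 min, 6.50 and 6.16 at 3 h and 6.06 and 6.24 at 12 h. On the CA3 arrays it was 5.55 and 5.25 at T0, 6.29 and 6.90 at 30 min, 6.43 and 6.04 at 3 h and 5.88 and 5.88 at 12 h. Every array at each later time was above all 4 arrays at T0, and at 30 min both CA1 arrays were above both CA3 arrays. The mean over both regions at T0 was 5.36 ± 0.13 (SD, n = 4), and the later means were 6.98 ± 0.52, 6.28 ± 0.22 and 6.01 ± 0.17. The difference from T0 was 1.61 ± 0.16 (SE, log2) at 30 min, a 3.06-fold level, 0.92 ± 0.16 at 3 h and 0.65 ± 0.16 at 12 h. It was thus highest at the first time and lower at each later time, without a return to the T0 level. In CA1 the differences were 2.03, 1.00 and 0.82 (SE 0.23) and in CA3 1.19, 0.83 and 0.48 (SE 0.23). With spike signal as a covariate the 12 h difference over both regions was 0.33 ± 0.18.

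In the order of the 8 group means, CA1 at 30 min was highest at 7.36, with a gap of 0.77 to CA3 at 30 min at 6.59. From there down through both regions at 3 h to CA1 at 12 h at 6.15, neighbours in the order overlapped. CA3 at 12 h at 5.88 lay below CA1 at 12 h and above CA3 at T0 at 5.40 without overlap, and the 2 regions at T0 overlapped.

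Dusp1 (probe set 1368146_at), the phosphatase of p38, JNK and ERK, had the widest range of group means among the 6 genes, 2.97, and its level was also highest at 30 min. Its log2 level in CA1 was 5.41 and 7.24 at T0, 8.60 and 9.49 at 30 min, 7.56 and 7.97 at 3 h and 7.47 and 9.15 at 12 h. In CA3 it was 5.32 and 6.82 at T0, 8.11 and 8.92 at 30 min, 7.91 and 8.80 at 3 h and 6.65 and 8.40 at 12 h. All arrays at 30 min and at 3 h were above all arrays at T0, while at 12 h the CA3 array of replicate 1 lay within the T0 range and 3 of 4 arrays were above both T0 arrays of their region. The mean over both regions was 6.20 ± 0.98 (SD, n = 4) at T0, and the later means were 8.78 ± 0.58, 8.06 ± 0.53 and 7.92 ± 1.09. The differences from T0 were 2.58 ± 0.58 (SE) at 30 min, a 5.98-fold level, 1.86 ± 0.58 at 3 h and 1.72 ± 0.58 at 12 h. These SEs count the CA1 and CA3 arrays of a replicate number as independent and may be too small. Both regions shared the direction at each time: 2.72, 1.44 and 1.98 in CA1 and 2.44, 2.28 and 1.45 in CA3 (SE 0.82). The 12 h difference was 0.72 ± 0.69 with spike signal as a covariate.

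The level of Dusp1 also differed by replicate number. Replicate 2 was higher than replicate 1 in 8 of 8 groups, by 1.22 on average, a pattern that 4.17% of all probe sets showed. At T0 in CA1 the 2 arrays were 1.83 apart, more than the mean difference between 12 h and T0. The other probe set of Dusp1 (1368147_at) stayed between 3.79 and 4.11 on all 16 arrays, correlated at -0.03 with the one used, and differed from T0 by -0.05, 0.09 and 0.01. The higher levels after T0 were thus measured by 1 of the gene's 2 probe sets, and the other lay low on the scale of the array.

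**Figure D1:**
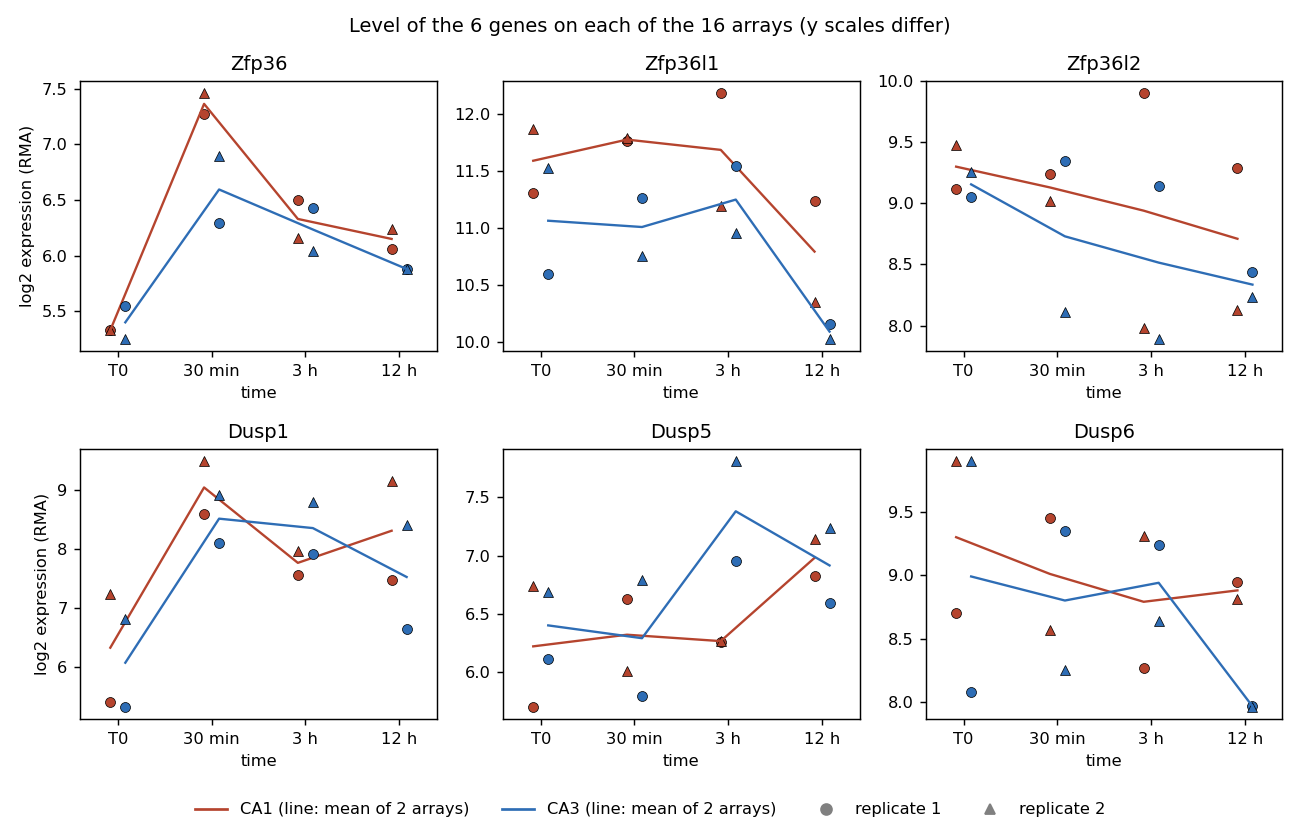
Log2 RMA level (y axis, scales differ) of each gene against time (x axis) on all 16 arrays, CA1 in red and CA3 in blue, with circles for replicate 1, triangles for replicate 2 and lines through the means of 2 arrays. Zfp36 and Dusp1 lie above their T0 arrays at 30 min on all 4 arrays, and the other 4 genes overlap with T0.

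Counted over the 6 genes, 2 (Zfp36 and Dusp1) had all 4 arrays above all 4 T0 arrays at 30 min and the same 2 at 3 h, and 1 (Zfp36) at 12 h. Of all probe sets 1.89%, 3.01% and 7.55% did so at those times. These counts describe how the genes were chosen and support nothing. The 3 comparisons share their T0 arrays, so their differences are not independent.

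Zfp36l1 (probe set 1369959_at), a paralogue of Zfp36 that acts on AU-rich messages in development and in cell cycle control, was highly expressed, and its level was lower at 12 h. The log2 level in CA1 was 11.31 and 11.87 at T0, 11.76 and 11.79 at 30 min, 12.18 and 11.19 at 3 h and 11.24 and 10.35 at 12 h. In CA3 it was 10.60 and 11.53 at T0, 11.26 and 10.76 at 30 min, 11.54 and 10.96 at 3 h and 10.16 and 10.03 at 12 h. At 12 h all 4 arrays were below both T0 arrays of their own region, although the CA1 array of replicate 1 lay above the lowest CA3 array at T0. The difference from T0 was 0.06 and 0.14 (SE 0.30) at 30 min and 3 h and -0.89 ± 0.30 at 12 h. By region the 12 h difference was -0.80 in CA1 and -0.97 in CA3 (SE 0.43). Microglia and dividing cell markers were lower at 12 h too, by medians of -1.89 and -2.29. The medians of astrocyte and of fibroblast and meningeal markers were -0.51 and -0.59. Those of neuron, CA1 field, CA3 field and oligodendrocyte markers were 2.40, 1.21, 0.91 and 0.09, and that of endothelial and mural markers -0.08. The part of these cell types in the Zfp36l1 level was not tested.

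Zfp36l2 (probe set 1373106_at), the third member of the family, varied more between replicates than between times. In CA1 its log2 level was 9.12 and 9.48 at T0, 9.24 and 9.02 at 30 min, 9.90 and 7.98 at 3 h and 9.29 and 8.13 at 12 h. In CA3 it was 9.05 and 9.26 at T0, 9.35 and 8.11 at 30 min, 9.14 and 7.89 at 3 h and 8.44 and 8.23 at 12 h. The differences from T0 were -0.30, -0.50 and -0.71 (SE 0.46), and at each later time some arrays lay within the T0 range. At 3 h replicate 2 was 1.93 below replicate 1 in CA1 and 1.24 below in CA3. Without the replicate 2 arrays of 3 h, in which GAPDH differed most between its ends, the 3 h difference was 0.29 ± 0.39. The other probe sets of Zfp36l2 gave differences of 0.35, 0.35 and 0.16 (1375344_at) and of -0.01, 0.00 and -0.08 (1389851_at), and neither was lower than T0 by more than 0.08. Both were dim, with means over 16 arrays of 5.29 and 3.60 against 8.85 for the one used. That limits how far a lower level could show in them.

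Dusp5 (probe set 1368124_at), a nuclear ERK phosphatase, was higher than at T0 in the mean at 3 h and 12 h, and at 3 h the higher values were in CA3. Its log2 level in CA1 was 5.70 and 6.74 at T0, 6.63 and 6.01 at 30 min, 6.26 and 6.27 at 3 h and 6.82 and 7.14 at 12 h. In CA3 it was 6.11 and 6.69 at T0, 5.79 and 6.79 at 30 min, 6.95 and 7.81 at 3 h and 6.59 and 7.24 at 12 h. Both CA3 arrays at 3 h and both CA1 arrays at 12 h were above the T0 arrays of their region, while at 30 min the arrays overlapped with T0. The differences from T0 over both regions were -0.01, 0.51 and 0.64 (SE 0.32). By region, the 3 h difference was 0.04 in CA1 and 0.98 in CA3 (SE 0.46), and the 12 h difference was 0.76 and 0.51. With 1 array left out the 3 h value over both regions ranged from 0.25, without replicate 1 of CA1 at T0, to 0.77, without replicate 2 of CA1 at T0, and it was 0.30 without replicate 2 of CA3 at 3 h. The 12 h value ranged from 0.38, without replicate 1 of CA1 at T0, to 0.90, and it was 0.28 with spike signal as a covariate and 0.39 without the low spike arrays.

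Dusp6, the cytoplasmic ERK phosphatase, was not higher than at T0 in the mean of any later time, and its 2 highest arrays were those of replicate 2 at T0. In CA1 its log2 level was 8.70 and 9.90 at T0, 9.45 and 8.57 at 30 min, 8.27 and 9.31 at 3 h and 8.95 and 8.81 at 12 h. In CA3 it was 8.08 and 9.90 at T0, 9.35 and 8.25 at 30 min, 9.24 and 8.64 at 3 h and 7.97 and 7.96 at 12 h. The T0 replicates were 1.20 apart in CA1 and 1.82 apart in CA3, and both CA3 arrays at 12 h were below both T0 arrays. The differences from T0 were -0.24, -0.28 and -0.72 (SE 0.45). With spike signal as a covariate the 12 h value was -0.12, and without replicate 2 of CA3 at T0 it was -0.27.

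The 3 probe sets of Dusp6 did not move as one. Over 16 arrays, probe set 1382778_at correlated at 0.92 with 1377064_at, the one used, and probe set 1387024_at at 0.46. The first of these gave differences from T0 of -0.06, 0.12 and -0.67, and the second 0.12, -0.51 and -0.28. At 1387024_at replicate 2 was higher than replicate 1 in 8 of 8 groups, by 1.10 on average, the same pattern that Dusp1 showed and 4.17% of probe sets shared.

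**Figure D2:**
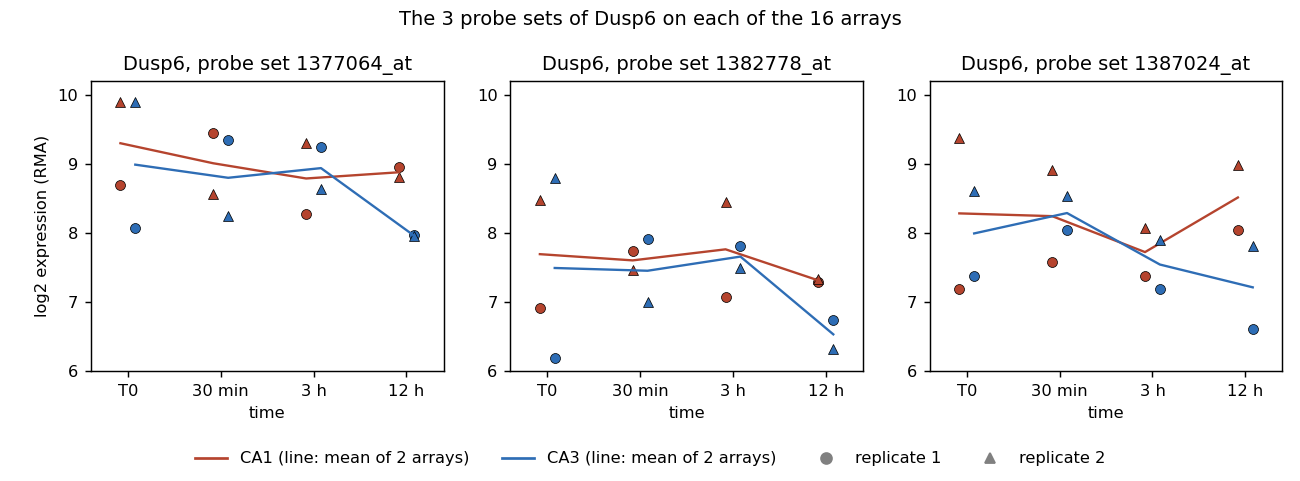
Log2 RMA level (y axis) of the 3 Dusp6 probe sets against time (x axis) on all 16 arrays, CA1 in red and CA3 in blue, circles for replicate 1 and triangles for replicate 2, with lines through the means of 2 arrays. Replicate 2 lies above replicate 1 in all 8 groups for 1387024_at and in only 3 of 8 for 1377064_at.

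**Figure D3:**
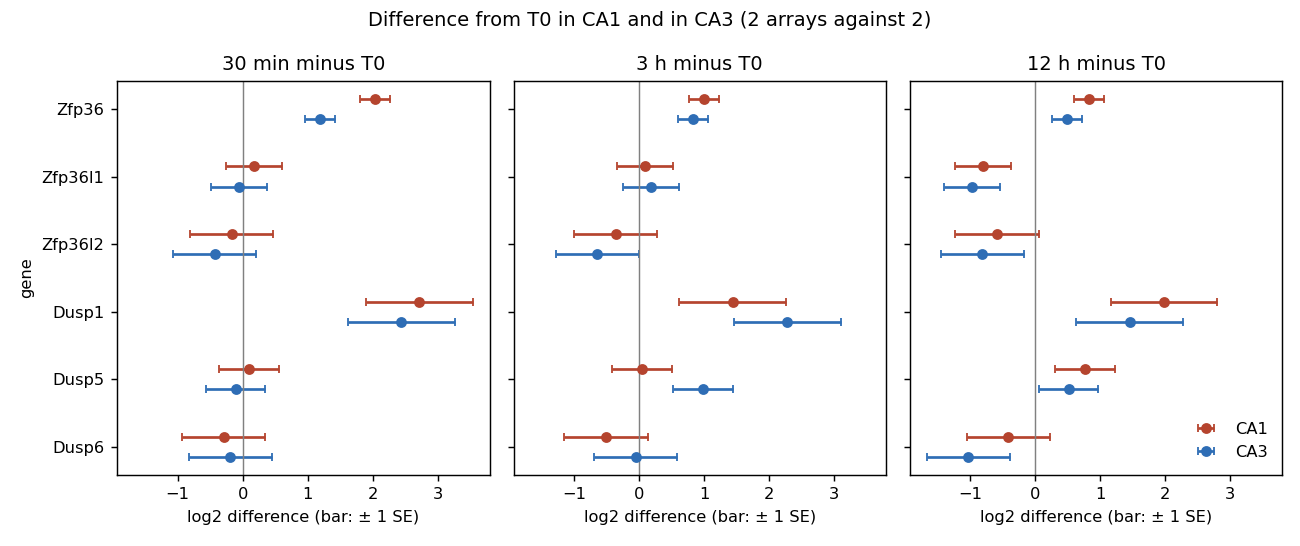
Log2 difference from T0 (x axis) of each gene (y axis) in CA1 (red) and CA3 (blue) at 30 min, 3 h and 12 h, each from 2 arrays against 2, with bars of 1 SE. Zfp36 differs by 2.03 in CA1 and 1.19 in CA3 at 30 min, Dusp1 by 2.72 and 2.44, and the bars of the other 4 genes reach 0 at 30 min.

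Differences between the 2 fields were tested, since the choice of genes did not use them directly. The tests at single times and of the change since T0 reuse arrays behind the choice and are read with that limit. In each of the 8 pairs of CA1 and CA3 arrays of one time and number, Zfp36l1 was higher in CA1, by 0.71 and 0.34 at T0, 0.50 and 1.03 at 30 min, 0.64 and 0.23 at 3 h and 1.08 and 0.32 at 12 h. The mean was 0.61 ± 0.21 (95% interval 0.13 to 1.08; adjusted p = 1 in limma's fit of all arrays). Pairs correlated in their deviations from the group means (0.57 to 0.67 at the 4 times), and with the pair as a block the difference was 0.61 ± 0.12 with an adjusted p of 0.097. Higher values in CA1 in 8 of 8 pairs occurred in 1.26% of all probe sets, and the same sign in 8 of 8 pairs in 2.28%.

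Zfp36 was higher in CA1 in 7 of 8 pairs, by 0.27 ± 0.12 (95% interval 0.01 to 0.52; adjusted p = 1 in limma's fit of all arrays and 0.335 with the pair block). The other genes differed by 0.34 ± 0.32 (Zfp36l2), 0.24 ± 0.41 (Dusp1), -0.30 ± 0.23 (Dusp5) and 0.33 ± 0.32 (Dusp6). In limma's fit of all arrays their 95% intervals ran from -0.38 to 1.05, from -0.66 to 1.15, from -0.80 to 0.21 and from -0.38 to 1.03. Each of these 4 intervals holds 0. With the pair block the standard errors were smaller, 0.15 (Zfp36l2), 0.10 (Dusp1), 0.18 (Dusp5) and 0.17 (Dusp6). The adjusted p in that limma fit was 0.489, 0.403, 0.68 and 0.58. With 1 array left out the means ranged from 0.10 to 0.58 (Zfp36l2), from 0.02 to 0.47 (Dusp1), from -0.43 to -0.17 (Dusp5) and from 0.10 to 0.55 (Dusp6), without a change of sign, and without the low spike arrays that of Dusp5 was -0.05. The medians of neuron and oligodendrocyte markers were below 0 in this contrast (given above), and their part in the region differences of Zfp36 and Zfp36l1 was not tested. In limma's fit of all arrays 0 of the 6 genes passed, beside 0% of all probe sets. At an unadjusted p under 0.05, 2 of the 6 (Zfp36 and Zfp36l1) and 510 of all probe sets were past the threshold. With the pair as a block 0 of the 6 passed, beside 0.208% of all probe sets. There 3 of the 6 (Zfp36, Zfp36l1 and Dusp1) and 1679 of all were past an unadjusted p of 0.05.

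At single times, differences between regions (CA1 minus CA3) were compared among the probe sets that stood for the 6 genes. The largest was 0.53 ± 0.43 for Zfp36l1 at T0, 0.77 ± 0.23 for Zfp36 at 30 min, -1.11 ± 0.46 for Dusp5 at 3 h and 0.92 ± 0.64 for Dusp6 at 12 h. The adjusted p was 1 for each in limma's fit of all arrays. With the pair block the adjusted p was 1, 0.497, 0.845 and 0.999. No gene passed at any time in either fit, and 0 of all probe sets passed in the fit of all arrays, with 115, 324, 249 and 205 at an unadjusted p under 0.05. In the pair block fit 0.0063% of all probe sets passed at 12 h and 0% at the other times, with 628, 1028, 885 and 710 at an unadjusted p under 0.05. The change since T0 was 0.84 ± 0.33 larger in CA1 than in CA3 for Zfp36 at 30 min, 0.93 ± 0.65 smaller for Dusp5 at 3 h and 0.60 ± 0.90 larger for Dusp6 at 12 h, each with an adjusted p of 1 in both fits. Over all probe sets 0% passed in either fit of these differences of change, and at an unadjusted p under 0.05 there were 133, 55 and 71 in the fit of all arrays and 595, 281 and 371 with the pair block. The Dusp6 value reversed to -0.31 without replicate 2 of CA3 at T0.

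**Figure D4:**
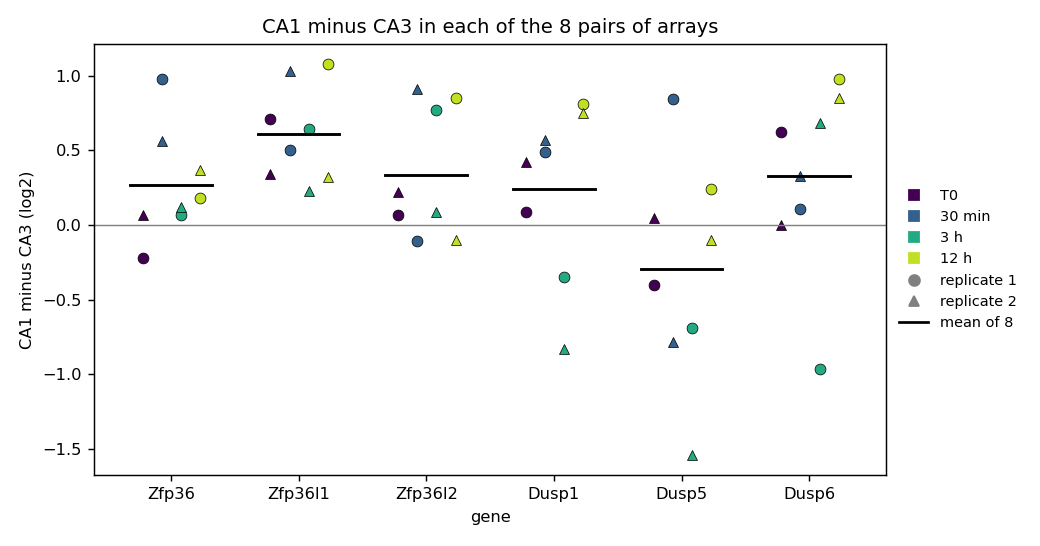
CA1 minus CA3 log2 difference (y axis) of each gene (x axis) in the 8 pairs of arrays of one time and replicate number, coloured by time, with circles for replicate 1, triangles for replicate 2 and a line at the mean of 8. All 8 Zfp36l1 points lie above 0, from 0.23 to 1.08, and the Dusp5 points run from -1.54 to 0.84.

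As a description over 16 arrays that share regions, times and processing, Zfp36 and Dusp1 correlated at 0.74, Zfp36l1 and Zfp36l2 at 0.72, Zfp36l1 and Dusp6 at 0.58 and Zfp36l2 and Dusp5 at -0.51. The named genes most like each member, by Pearson correlation over the same 16 arrays among 6014 genes with a mean of at least 6, were H19 (0.87), Coq10b (0.85) and Cd9 (0.82) for Zfp36. For Dusp1 they were Fos (0.87), the early AP-1 gene, Smad1 (0.86) and Klf4 (0.83). For Zfp36l1 they were Ctbs (0.92), Rgs1 (0.89) and Fads1 (0.87), and for Zfp36l2 Suclg2 (0.95), Mdfic (0.94) and Sec63 (0.94). For Dusp5 they were Rbbp6 (0.84), Mnt (0.79) and Gtf2h1 (0.77), and for Dusp6 Rcn1, Notch1 and Rmi1 (each 0.82).

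Other genes of these pathways were taken from 8 lists of 128 genes, of which 93 (72.7%) were measured. The lists too were chosen with earlier results of these data known. Their medians, counts and p-values for the change since T0 are therefore not independent of that choice. In limma's test 0 of the 93 passed at 30 min, 0 at 3 h and 4 at 12 h, beside 0.107%, 0.183% and 2.07% of all 15866 probe sets. At an unadjusted p under 0.05 there were 13, 17 and 25 of the 93, beside 1184, 1443 and 2891 of all. Of the other MAP kinase phosphatases 3 of 7 were measured, with median differences from T0 of 0.25, 0.27 and 0.28, against -0.01, 0.02 and -0.03 for all named genes. Dusp4 differed by 0.31 ± 0.15 at 30 min, Dusp2 by 0.95 ± 0.40 at 3 h and Dusp9 by 0.44 ± 0.21 at 12 h, and none passed. Their means over 16 arrays were low, 4.39, 5.98 and 3.80, which limits what these values can show. Among the atypical dual-specificity phosphatases, which lack the kinase docking domain, Dusp26 differed by 2.05 ± 0.79 at 12 h without passing, and the medians of the 8 measured were -0.04, 0.16 and 0.01.

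Immediate early genes, mostly transcription factors but also Arc, were the list with the highest medians, 0.48, 0.52 and 0.49 over 24 of 25 genes. Of them 20, 21 and 18 were above 0, beside 48.2%, 53.4% and 44.8% of all named genes. Fosb, a component of AP-1, rose by 3.14 ± 0.53 at 12 h (adjusted p = 0.0194, limma) from 5.31 ± 0.22 to 8.45 ± 0.66 (SD, n = 4). Jun rose by 1.15 ± 0.20 at 12 h (adjusted p = 0.024, limma). Nr4a3 differed by 2.36 ± 0.66 at 30 min and Atf3 by 2.41 ± 0.49 at 3 h, without passing. The median differences from T0 of the neuron markers were 0.80, 0.26 and 2.40. Their part in the values of this list and of Dusp26 was not tested. With the CA1 and CA3 arrays averaged in pairs, 0 of the 93 pathway genes and 0 of all probe sets passed limma's test at any time. At an unadjusted p under 0.05 there were then 10, 9 and 17 of the 93, beside 629, 792 and 1664 of all.

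Among 16 known ZFP36 target messages the medians were 0.06, 0.22 and -0.27, and 10, 11 and 2 of them had a value above 0, beside the same 48.2%, 53.4% and 44.8% of all named genes. Ptgs2, cyclooxygenase 2, rose by 1.90 ± 0.33 at 12 h (adjusted p = 0.0237, limma), and no other gene of the 16 passed in that fit. The level of Ptgs2 was low, 3.45 ± 0.13 at T0 and 5.34 ± 0.81 at 12 h (SD, n = 4), beside a lowest value of 2.82 in the data. By region its 12 h difference was 2.55 in CA1 and 1.24 in CA3 (SE 0.47). With pairs averaged Ptgs2 did not pass. Of the other targets, Il1b, Cxcl2, Tnf, Plaur, Csf2, Il6, Lif and Il10 had means over 16 arrays under 6. That limits what the medians and counts of the targets can show. Cxcl1, a chemokine, differed by -2.29 ± 0.97 at 12 h and Ccl2, another, by -1.69 ± 1.67 at 30 min, without passing. Several of these targets are also expressed by microglia, whose markers were lower at 12 h, and the part of that in these values was not tested.

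In the MAP kinase cascades 20 of 32 genes were measured, with medians of -0.06, 0.01 and -0.07. Mapkapk2, the kinase through which p38 controls ZFP36, fell by 0.72 ± 0.13 at 12 h (adjusted p = 0.0303, limma), and Rps6ka4 differed by -1.10 ± 0.31 without passing. Mapkapk2 did not pass with a trended variance prior or among only probe sets with a mean of at least 6. It also did not pass with pairs averaged, without the low spike arrays or with spike signal as a covariate. Of the other inhibitors of the ERK pathway, 4 of 9 were measured, with medians of 0.04, -0.08 and -0.02, and Errfi1 differed by 1.41 ± 0.56 at 12 h. The medians of 5 measured AU-rich element binding proteins were -0.26, -0.36 and -0.15, and those of 13 deadenylation and decapping factors -0.21, -0.30 and -0.07, with 0 past the threshold in either list in limma's test. Between the regions, 0 of the 93 passed in limma's fit of all arrays and 0 with the pair block, beside 0% and 0.208% of all probe sets. At an unadjusted p under 0.05 there were 5 and 17 of the 93, beside 510 and 1679 of all.

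**Figure D5:**
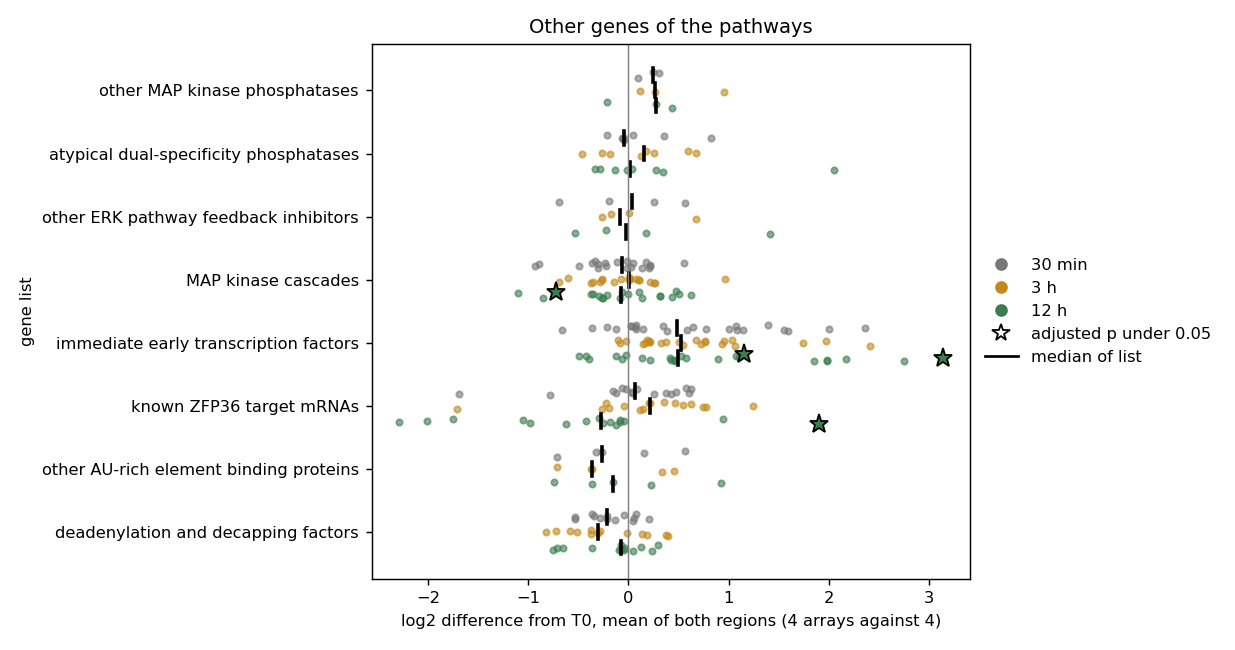
Log2 difference from T0 averaged over both regions (x axis) of the measured genes of 8 pathway lists (y axis) at 30 min (grey), 3 h (ochre) and 12 h (green), with black bars at list medians and stars for an adjusted p under 0.05. The 4 stars, all at 12 h, are Fosb at 3.14, Ptgs2 at 1.90, Jun at 1.15 and Mapkapk2 at -0.72.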

How the data were processed

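The authors' deposited table holds log2 expression values for 15923 probe sets on 16 arrays, made with RMA per the submitters' processing notes (version and settings: not given in the sources used here). RNA was labelled in 2 cycles, which amplifies it, per the labels' protocols. After 57 control probe sets were set aside, 15866 were tested; 12783 have 1 gene symbol, 312 several and 2771 none in the platform annotation, and 12748 of the named ones matched RefSeq on GRCr8 by Entrez ID.

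Group means were fitted with limma 3.58.1 (R 4.3.3) over all 8 groups, with 8 residual degrees of freedom and p-values adjusted by Benjamini-Hochberg over all probe sets at a threshold of 0.05. The fit of all arrays, the pair block fit between regions and the fit of pair averages were first run on simulated data with known changes. The simulated arrays varied independently, so the correlation of CA1 and CA3 arrays was not covered. The other settings were not simulated. With 2 arrays a group, their number limits the precision. Same-numbered CA1 and CA3 arrays of a time deviated together (correlations of 0.57 to 0.67), so the numbers were taken to pair them. The standard errors of the 6 genes' differences from T0 over both regions do not allow for this. Between T0 and later arrays of a number the correlations were 0.21 to 0.31 in CA1 and -0.24 to 0.02 in CA3, not over 0.1 in every pair, so times were not paired. The members and lists were chosen with earlier results of these data known. Named were all 6 genes, list genes past the threshold, the gene of the largest difference per list and time, and the 3 most correlated genes per member. Alternatives were 2 replicate blocks, 2 normalizations, a dim filter, a trended prior, 2 sets of arrays left out, a spike covariate, other probe sets, and each array left out. Protein sequences were not used here.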

Additional observations from a re-analysis of the deposited data

How the results depend on the processing

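The differences of the 6 genes over both regions and between regions were recomputed under 9 other settings and with each of the 16 arrays left out. At 30 min Zfp36 ranged from 1.40 to 1.63 over the settings and from 1.46 to 1.77 with 1 array left out, and Dusp1 from 1.90 to 2.61 and from 2.12 to 3.04. With spike signal as a covariate, the 12 h difference of Zfp36 was 0.33 and that of Dusp1 0.72, and without the replicate 2 arrays of 3 h that of Zfp36l2 at 3 h was 0.29. With another probe set of the gene, Zfp36l2 differed from T0 by 0.35 at 3 h and 0.16 at 12 h, and Dusp1 by -0.05, 0.09 and 0.01 at the 3 times. Zfp36l1 at 12 h ranged from -0.91 to -0.63 and from -1.12 to -0.65. Among the differences from T0, the sign changed with another setting or with 1 array left out for Zfp36l1, Zfp36l2 and Dusp6 at 30 min and 3 h and for Dusp5 at 30 min, and for none of the 6 genes at 12 h (other probe sets aside). The Dusp6 interaction at 12 h ranged from -0.31 to 1.51 with 1 array left out. Over 334 values of the region comparisons under the alternatives, 0 passed, and the smallest adjusted p was 0.097, for Zfp36l1 with the pair block.

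For the pairing, with same-numbered CA1 and CA3 arrays as a replicate block, the count of pathway genes past the threshold at 12 h was 0 in place of 4, and it changed no call of the 6 genes between regions. With the replicate number as a block, it was 14, and 1 (Fos) at 30 min. It was 0 without the low spike arrays and 0 with spike signal as a covariate, and cyclic loess gave 1 (Jun) at 3 h. With 1 array left out it ranged from 0 to 6: 0 without replicate 2 of CA1 at T0, of CA3 at T0 or of CA3 at 12 h, 1 without replicate 1 of CA1 at T0 or either CA1 array at 12 h, and 2 without replicate 1 of CA3 at 12 h. The causes were not tested. Low signal limits the second Dusp1 probe set, 2 of Zfp36l2, that of Ptgs2 and those of other list genes, among them Dusp2, Dusp4 and Dusp9.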
